A study of Homo sapiens with 5 samples.

Results

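Peaks of Nrf2 and HIF1α were examined at 9 genes of epidermal growth factor signaling: the receptors EGFR, ERBB2 and ERBB3, the ligands HBEGF, AREG, EREG, TGFA and BTC, and the receptor inhibitor ERRFI1. The genes were chosen by name, and every peak inside a gene, or up to 50 kb from either of its ends on hg19, was taken, with positions from GENCODE release 44. The 9 genes are among 20163 protein-coding genes of that annotation, and 52 of the 29781 deposited peaks met the rule. The cells were BEAS-2B, an immortalized line of human bronchial epithelial cells, deprived of serum overnight before 6 h with 1 μM iAs (inorganic trivalent arsenic) or, as the control, without it. Chromatin was immunoprecipitated with an antibody against Nrf2 or against HIF1α, which gave 4 libraries: Nrf2 control, Nrf2 iAs, HIF1α control and HIF1α iAs. Each condition had 1 library, so no difference between conditions could be tested, and an input library was not used here. The deposited lists give the start and the end of each peak without height or read count, so the loci are described by the presence, position and width of peaks.

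EGFR and the related ERBB receptors are tyrosine kinases of the cell membrane. The ligands are made as membrane-bound precursors, cut free by proteases of the ADAM family, and bind EGFR, after which the receptors pair and start the RAS-MAPK and PI3K-AKT relays. ERBB2 has no known ligand of its own and acts as a partner, ERBB3 has a weak kinase and binds neuregulins, and ERRFI1 (MIG6) binds the activated kinase and blocks it. In bronchial epithelium this system is known for its part in repair and proliferation. Nrf2 is a basic leucine zipper factor that binds antioxidant response elements together with small MAF proteins, and HIF1α is the regulated subunit of a hypoxia-inducible factor that binds short elements around the letters CGTG.

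The letters found in some of the Nrf2 peaks are shown first, because all Nrf2 peaks at these genes lay away from the start sites. The Nrf2 iAs peaks at chr7:55154579-55154828, chr7:55198451-55198723 and chr1:8107902-8108117 held none of TGACTCAGC, TGACNNNGC and TGANTCA, the elements given below. The sequences are from the hg19 reference and run 5′ to 3′ on the strand that holds the match, with the match in capitals. The full element TGACTCAGC occurred in 3 of the 12 Nrf2 iAs peaks. The first is in intron 1 of EGFR (chr7:55133526-55133586, minus strand), inside a peak of both conditions. The second is in intron 20 of EGFR (chr7:55254096-55254156, plus strand), inside a peak of iAs-treated cells. The third is upstream of ERRFI1 (chr1:8100797-8100857, minus strand), inside a peak of both conditions.
EGFR intron 1: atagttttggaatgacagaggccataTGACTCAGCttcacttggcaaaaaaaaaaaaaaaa
EGFR intron 20: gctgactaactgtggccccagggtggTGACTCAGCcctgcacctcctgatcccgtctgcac
ERRFI1 upstream: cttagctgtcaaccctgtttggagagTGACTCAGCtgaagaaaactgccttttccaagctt

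The peak in intron 1 of TGFA held the looser element TGACNNNGC at 2 places. One (chr2:70752396-70752456, plus strand) lay in the peaks of both conditions, and the other (chr2:70752161-70752221, minus strand) lay in the stretch that was covered with iAs and not in the control.
TGFA intron 1, both conditions: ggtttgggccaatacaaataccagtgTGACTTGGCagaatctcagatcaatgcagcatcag
TGFA intron 1, iAs: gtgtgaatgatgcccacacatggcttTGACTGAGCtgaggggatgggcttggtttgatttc

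The widest Nrf2 peak at EGFR and the Nrf2 peak in EREG held the shorter TGANTCA, a match to which is also contained in TGACTCAGC. With C or G at the N, as in both matches shown here, it is the core of AP-1 elements. The EGFR match is at chr7:55200741-55200799 on the plus strand, and the EREG match at chr4:75240969-75241027 on the plus strand.
EGFR intron 1, widest peak: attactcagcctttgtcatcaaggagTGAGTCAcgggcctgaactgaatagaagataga
EREG intron 1: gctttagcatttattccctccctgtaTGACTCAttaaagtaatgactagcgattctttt

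For HIF1α, the start of EGFR intron 1 is shown (chr7:55087416-55087472, plus strand), since its HIF1α peak was wider than those at the other start sites and alone held ACGTG. The 2 matches in it are 1 palindrome read on both strands, and they lie 202 and 203 bp from the peak centre. At HBEGF the letters GCGTG lay in the first exon (chr5:139726148-139726174, plus strand).
EGFR intron 1, start: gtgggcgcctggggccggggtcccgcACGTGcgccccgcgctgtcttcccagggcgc
HBEGF exon 1: gccagccagcaGCGTGgcccgcgtagc

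Across the 9 genes the Nrf2 lists held 6 peaks in the control and 12 after iAs, and the HIF1α lists 13 and 21. EGFR, TGFA and ERRFI1 had an Nrf2 peak in control cells, which is 3 of 9 genes beside 20.0% of all protein-coding genes, and with iAs EREG was added, which gave 4 of 9 beside 35.0%. HIF1α peaks lay at 4 of 9 genes in control cells beside 45.5% of all genes, and at 6 of 9 with iAs beside 68.6%. As shares of the 9 genes these were 33.3% and 44.4% for Nrf2, above all genes, and 44.4% and 66.7% for HIF1α, slightly below them. No test was made on so few genes. The number of peaks in each whole list was also higher with iAs. When each iAs list was cut to its widest peaks, as many as the control list of that factor held, the direction at the 9 genes turned, with 4 Nrf2 iAs peaks beside 6 in the control and 8 HIF1α iAs peaks beside 13. AREG and BTC had no peak of any library, as had 24.3% of all genes.

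**Figure D1:**
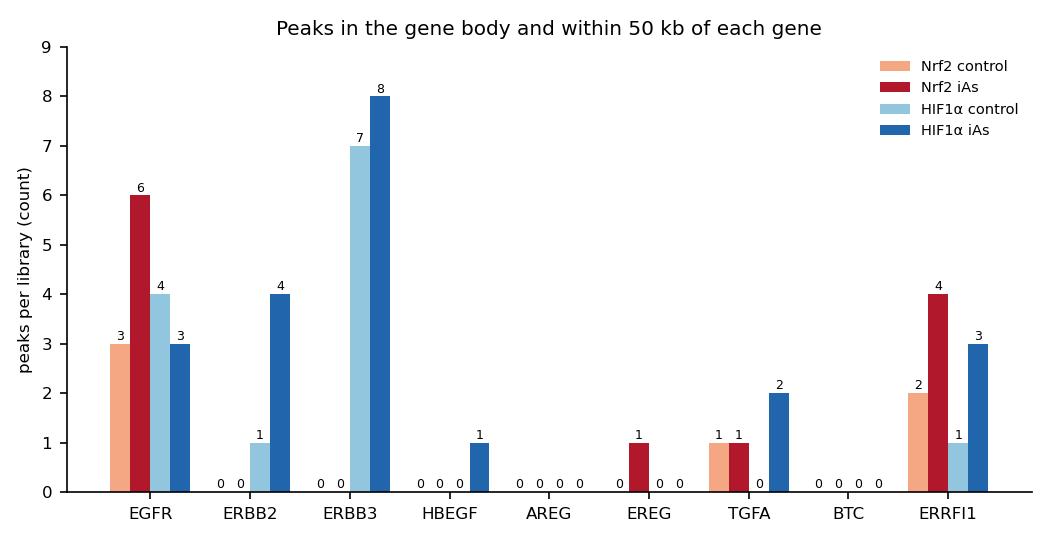
Number of peaks (vertical axis) inside each of the 9 genes or up to 50 kb away (horizontal axis), 1 bar for each of the 4 libraries. EGFR held 3 and 6 Nrf2 peaks in control and iAs-treated cells, ERBB3 held 7 and 8 HIF1α peaks and no Nrf2 peak, and AREG and BTC held none.

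The factors differed in where their peaks lay. With iAs, a HIF1α peak lay within 1 kb of the start site of 6 of the 9 genes, namely EGFR, ERBB2, ERBB3, HBEGF, TGFA and ERRFI1, beside 42.6% of all genes. In control cells ERBB3 was the 1 gene of 9 with such a peak, beside 16.7% of all genes. Nrf2 had no peak within 1 kb of these start sites in control cells (0 of 9 genes beside 2.32%) or with iAs (0 of 9 beside 5.17%). At EGFR, TGFA and ERRFI1 a HIF1α peak at the start site was found together with Nrf2 peaks elsewhere in the locus in iAs-treated cells, which is 3 of 9 genes beside 15.0% of all genes. Peaks of both factors within 50 kb, at any position, were found at the same 3 genes with iAs, beside 29.5% of all genes.

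**Figure D2:**
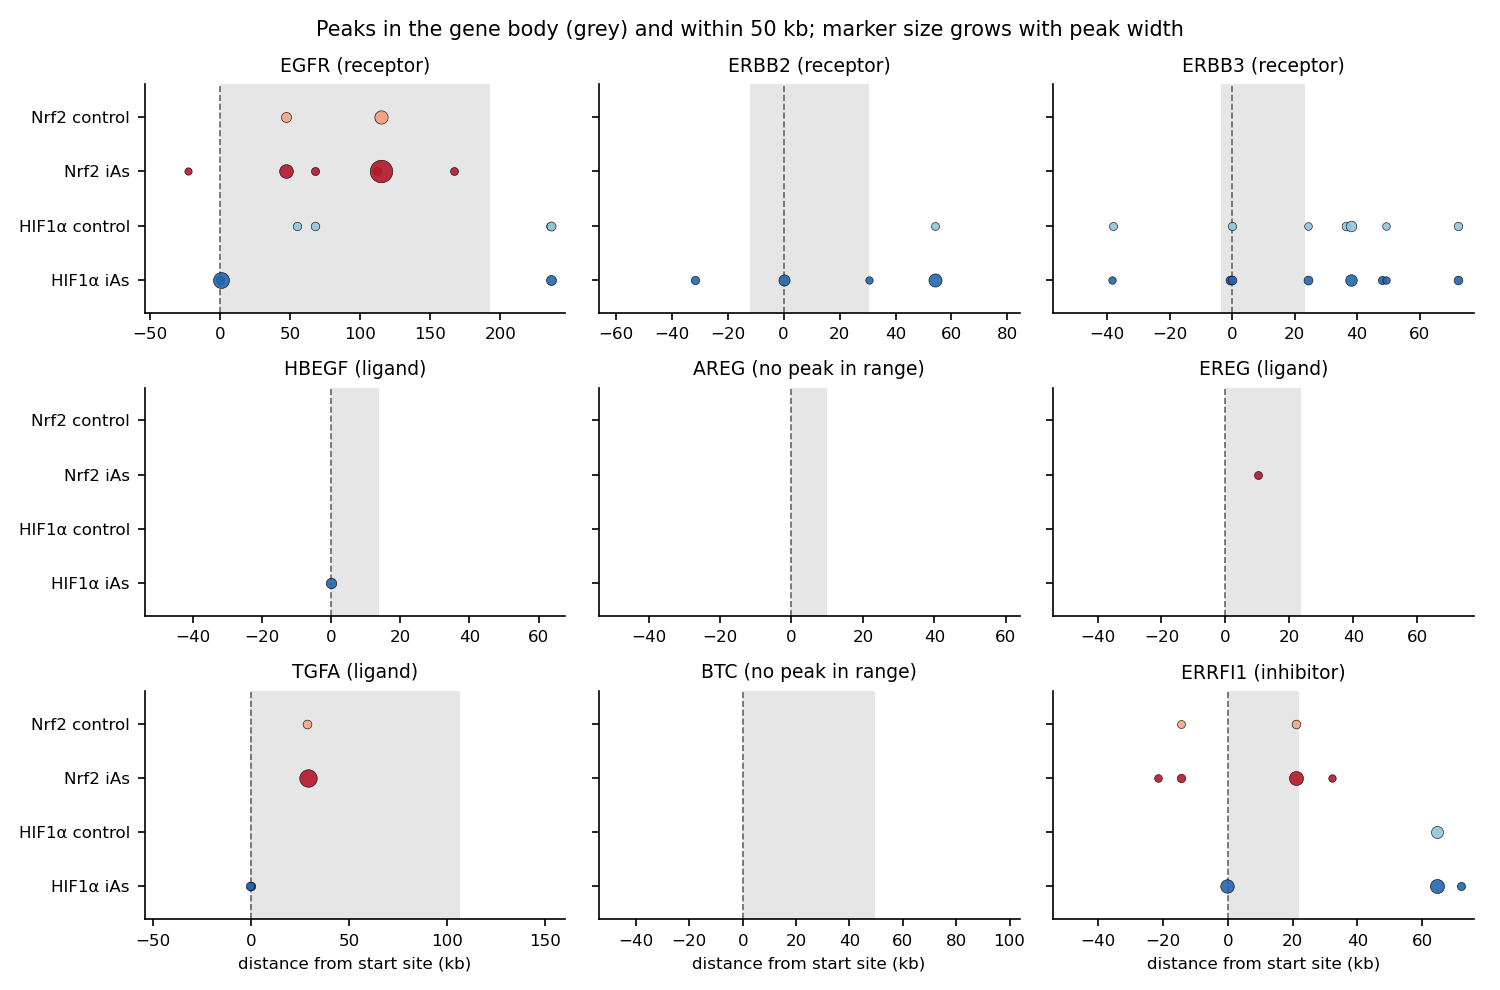
Position of each peak from the start site of the canonical transcript (horizontal axis, kb, negative upstream) in the 4 libraries (rows), 1 panel per gene, with the gene body in grey and the size of the marker growing with the width of the peak. HIF1α iAs peaks sit at the start site of 6 genes, whereas the Nrf2 peaks of EGFR, EREG, TGFA and ERRFI1 lie between 10.2 and 167 kb from it.

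No Nrf2 iAs peak at these genes overlapped a HIF1α iAs peak. At the 3 genes with both factors, the 11 Nrf2 iAs peaks lay 13.9 to 112 kb from the nearest HIF1α iAs peak on the same chromosome, with a median of 31.7 kb. Of all 7743 Nrf2 iAs peaks, 14.7% overlapped a HIF1α iAs peak. Overlapping the 4 lists gave 36 regions at the 9 genes. HIF1α iAs alone made 12 of them, both HIF1α libraries 9, Nrf2 iAs alone 6, both Nrf2 libraries 5, HIF1α control alone 3, and Nrf2 iAs with HIF1α control 1. None of the 36 held peaks of all 4 libraries, as did 1.59% of all 21088 regions.

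EGFR had the most Nrf2 peaks of the 9 genes, and also the longest body, 193 kb. Per 100 kb of the window searched it had 2.05 Nrf2 iAs peaks, beside 3.28 at ERRFI1. In control cells there were 3, all in intron 1: a peak of 421 bp at chr7:55133461-55133881, 47.0 kb from the start site, and a pair of 468 and 697 bp at chr7:55200543-55201010 and chr7:55201102-55201798, 114 and 115 kb from it. With iAs the first became 733 bp wide (chr7:55133058-55133790), and a single peak of 1493 bp spanned the pair (chr7:55200496-55201988), wider than 98.2% of all Nrf2 iAs peaks. All 3 control positions thus remained occupied with iAs. The matches shown above lay away from the centres of these iAs peaks. TGACTCAGC was 132 bp from the centre of the 733 bp peak, and TGAGTCA 472 bp from that of the 1493 bp peak.

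Another 4 Nrf2 peaks at EGFR were found with iAs and overlapped no control peak. They were a peak of 183 bp 22.9 kb upstream of the gene (chr7:55063755-55063937), peaks of 250 bp and 273 bp in intron 1 (chr7:55154579-55154828 and chr7:55198451-55198723), and a peak of 234 bp in intron 20, 167 kb from the start site (chr7:55253928-55254161). These 4 were narrow: each was narrower than the median Nrf2 iAs peak of 333 bp. The intron 20 peak held TGACTCAGC 82 bp from its centre, in the sequence given above. The upstream peak held a TGANTCA match with A at the N, TGAATCA, 19 bp from its centre.

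HIF1α at EGFR lay at different places in the 2 conditions. In control cells, 4 peaks of 219 to 331 bp were found, 2 in intron 1 (chr7:55141708-55141986 and chr7:55154321-55154608) and 2 downstream of the gene (chr7:55322242-55322460 and chr7:55323028-55323358), and none lay within 1 kb of the start site. With iAs there were 3. A peak of 280 bp lay in exon 1 (chr7:55086760-55087039) with its centre 189 bp after the start site, a peak of 928 bp followed at the start of intron 1 (chr7:55087183-55088110) with its centre 936 bp after it, and a downstream peak of 414 bp overlapped a control peak by 62 bp (chr7:55322676-55323089). The 928 bp peak was wider than 95.5% of all HIF1α iAs peaks. The downstream peaks of both conditions were nearest to the start site of another gene, LANCL2. Neither intron 1 peak of the control list overlapped a HIF1α peak with iAs. One of them, at chr7:55154321-55154608, overlapped the iAs-treated cells' Nrf2 peak by 30 bp, which was the 1 place at the 9 genes where peaks of both factors overlapped, in different conditions.

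ERBB2 and ERBB3 had no Nrf2 peak within 50 kb in either condition. The nearest Nrf2 peak lay 202 kb from the ERBB2 body in both conditions, 24.3 kb (control) and 24.5 kb (iAs) from the start site of CDK12, and 197 kb (control) or 212 kb (iAs) from ERBB3. Their HIF1α peaks sat in gene-dense neighborhoods, and many belong by distance to other genes.

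At ERBB2 1 HIF1α peak was found in control cells and 4 with iAs. The peak that covered the ERBB2 start site was found with iAs and not in the control (chr17:37856224-37856736, 513 bp). Another 2 without a control peak lay at the start sites of neighbors, PNMT (chr17:37824566-37824837, 272 bp) and MIEN1 (chr17:37886597-37886784, 188 bp). The remaining site lay downstream, nearest to GRB7, which encodes an adaptor that binds ERBB2, and was 243 bp wide in control cells (chr17:37910382-37910624) and 682 bp with iAs (chr17:37910044-37910725).

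ERBB3 was the 1 gene of the 9 with a HIF1α peak at its start site in both conditions. The peak was 264 bp wide in control cells (chr12:56473690-56473953) and 304 bp with iAs (chr12:56473671-56473974), and a second peak of 315 bp, 702 bp upstream of the start site, was found with iAs (chr12:56473090-56473404). The other 6 control peaks and 6 iAs peaks within 50 kb were nearest to the start sites of RPS26, PA2G4, RPL41, ZC3H10, ESYT1 and MYL6B. RPL41 had its peak in control cells and not with iAs (chr12:56510385-56510685), and 1 of the 2 peaks at ESYT1 was found with iAs and not in the control (chr12:56521861-56522118). Counting only peaks whose nearest start site is that of ERBB3 left 1 in control cells and 2 with iAs.

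TGFA, the gene of the ligand transforming growth factor α, had peaks of both factors. The Nrf2 peak in its intron 1, 28.8 kb from the start site, was 305 bp wide in control cells (chr2:70752209-70752513) and 1060 bp with iAs (chr2:70751581-70752640). This was the largest widening of the 9 genes, a ratio of 3.48, above 96.0% of all Nrf2 iAs peaks that had a control peak. The TGACNNNGC match of both conditions lay 65 bp from the centre of the control peak and 316 bp from that of the iAs peak. The other match lay 81 bp from the centre of the iAs peak. HIF1α had no control peak within 50 kb of TGFA, the nearest being 256 kb from the gene body. With iAs it had a peak of 283 bp over the start site (chr2:70780750-70781032) and a peak of 276 bp with its centre 437 bp upstream (chr2:70781258-70781533).

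HBEGF, the heparin-binding ligand, had 1 peak in all, a HIF1α peak of 452 bp with iAs that covered the start site (chr5:139725891-139726342). Its letters GCGTG occurred at 2 places, and ACGTG at none. The nearest other peaks lay just beyond the distance limit, 54.8 kb (Nrf2 iAs, 215 bp) and 54.9 kb (HIF1α control, 300 bp) upstream, both near the start of ANKHD1. Just inside the limit lay a HIF1α iAs peak of 254 bp whose edge was 49999 bp from the body of ERRFI1 (chr1:8014212-8014465).

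EREG, which encodes epiregulin, had 1 Nrf2 peak with iAs, in intron 1 and 10.2 kb from the start site (chr4:75240911-75241147, 237 bp). It held TGACTCA with its middle 31 bp before the peak centre. No HIF1α peak was found within 50 kb of EREG, AREG or BTC, which lie together on chromosome 4, and the nearest HIF1α iAs peak was 207 kb from the body of EREG, 287 kb from AREG and 646 kb from BTC.

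AREG, the amphiregulin gene, had no peak in any library, and the nearest Nrf2 iAs peak, 69.7 kb away, was the one in EREG. The AREG body has a near-copy on hg19: 95.1% of its 36-base words and 89.1% of its 75-base words recur exactly in the same cluster, where the copy AREGB is annotated (chr4:75480629-75490486). Over the whole window searched, the body and 50 kb on each side, the shares were 36.5% and 35.0%, so most of that window had no exact copy in the cluster. A read from a stretch with an exact copy has no single place on hg19, and the part of this in the absence of peaks was not tested. No 75-base word of the EREG or BTC body recurred there. BTC, the betacellulin gene, had no peak within 50 kb, but an Nrf2 peak lay 61.7 kb downstream of it in control cells (chr4:75607856-75608234, 379 bp) and 61.4 kb with iAs (chr4:75607482-75608570, 1089 bp), and BTC had the nearest start site, 112 kb away.

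ERRFI1 resembled EGFR in holding several distal Nrf2 sites and a HIF1α peak at its start. In control cells the Nrf2 sites were a peak of 299 bp in the downstream part of a longer transcript, 21.0 kb from the start site (chr1:8065180-8065478), and a peak of 239 bp 14.5 kb upstream (chr1:8100708-8100946). With iAs these were 761 bp (chr1:8064848-8065608) and 277 bp wide (chr1:8100716-8100992). Another 2 peaks, of 195 bp (chr1:8054204-8054398) and 216 bp (chr1:8107902-8108117), were found with iAs and not in the control. In the upstream peak of the control the element TGACTCAGC lay at the very centre, 0 bp from it, and with iAs 27 bp from the peak centre.

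The HIF1α peak over the ERRFI1 start site was found with iAs, at 717 bp (chr1:8086112-8086828), and not in the control. The HIF1α peak at the neighboring gene PARK7 was present in both conditions, at 592 bp in control cells (chr1:8021376-8021967) and 764 bp with iAs (chr1:8021327-8022090). The remaining HIF1α iAs peak, at the edge of the distance limit, was also nearest to PARK7.

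Width was the one graded value in the lists. All 5 Nrf2 iAs peaks at the 9 genes that had a control peak were wider with iAs, by a median ratio of 1.74 and a range of 1.16 to 3.48. For the 2 EGFR control peaks under the 1493 bp peak, the widths were added to 1165 bp, which gave a ratio of 1.28. Over all 2939 such Nrf2 peaks the median ratio was 1.63 and 91.7% were wider with iAs. For HIF1α 7 of 9 were wider, with a median ratio of 1.18 beside 1.43 and 75.9% over all 3175. The 2 that were narrower with iAs lay at RPS26 and ESYT1, in the ERBB3 neighborhood.

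**Figure D3:**
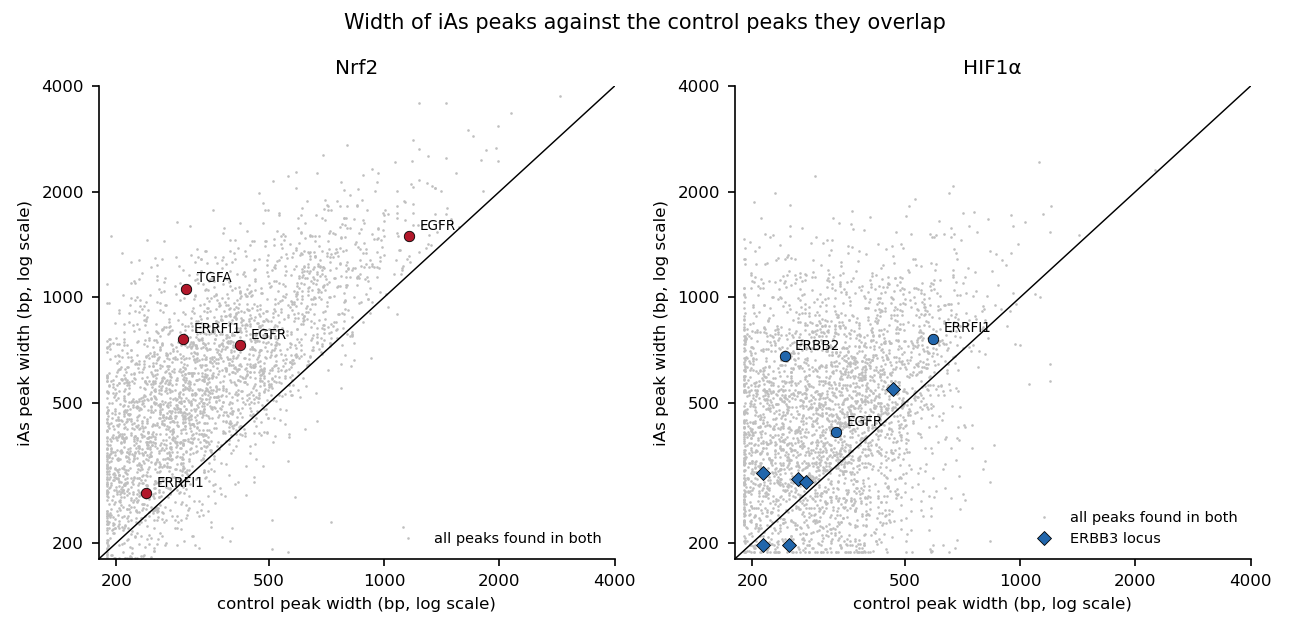
Width of each iAs peak (vertical axis, bp, log scale) against the width of the control peaks it overlaps (horizontal axis, bp, log scale) for Nrf2 (left) and HIF1α (right), with all such peaks in grey, those at the 9 genes in color, and the line of equal width. All 5 Nrf2 points lie above the line, with TGFA at 305 and 1060 bp, and 7 of 9 HIF1α points do.

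An Nrf2 iAs peak with no Nrf2 control peak under it was found at 3 of 9 genes (EGFR, EREG and ERRFI1; 7 peaks), beside 25.4% of all genes. For HIF1α such peaks were found at 6 of 9 genes (12 peaks), beside 59.6% of all genes. As a share of peaks, 7 of 12 Nrf2 iAs peaks at these genes had no control peak, beside 62.0% of all Nrf2 iAs peaks, and 12 of 21 HIF1α iAs peaks had none, beside 75.2%. Among equal numbers of the widest peaks these 7 and 12 became 0 and 4. In the other direction, each of the 6 Nrf2 control peaks overlapped an Nrf2 peak with iAs, while 4 of 13 HIF1α control peaks overlapped none, 3 of them at EGFR and 1 at ERBB3. Over all control peaks, 5.37% for Nrf2 and 46.3% for HIF1α overlapped none, so this contrast between the factors was general.

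Distance from any protein-coding start site, including those of neighbors, separated the factors at these genes. None of the 12 Nrf2 iAs peaks had its centre within 1 kb of a start site (Wilson 95% interval of the share 0% to 24.2%, for counting error only), beside 11.9% of all Nrf2 iAs peaks. For HIF1α the share was 7 of 13 in control cells and 17 of 21 with iAs, beside 48.7% and 72.6% of all peaks. Peaks of 1 locus share a library and a neighborhood and are not replicates.

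**Figure D4:**
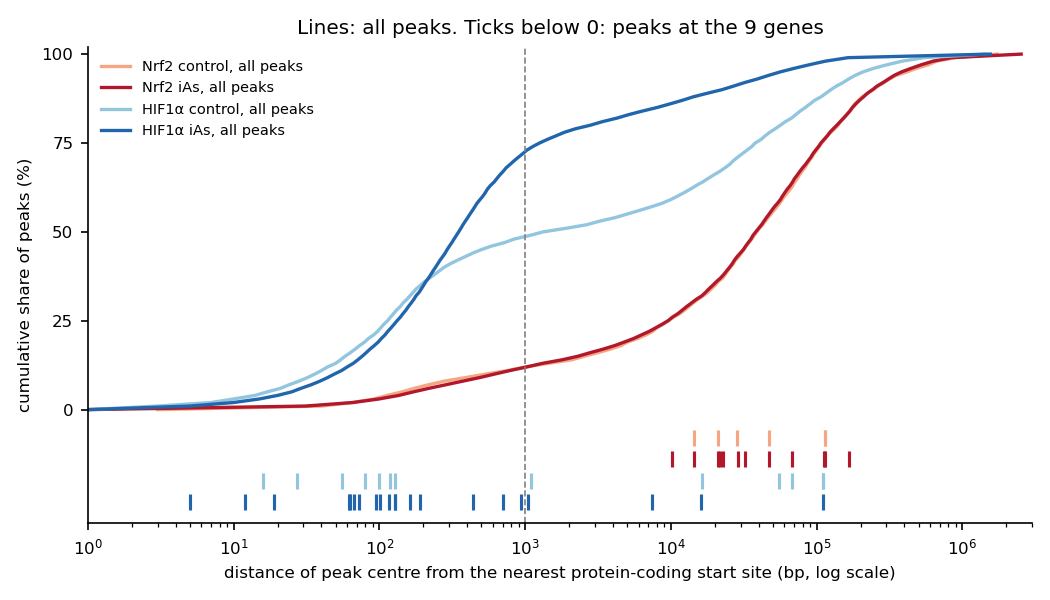
Cumulative share of all peaks (vertical axis, percent) by the distance of the peak centre from the nearest protein-coding start site (horizontal axis, bp, log scale) in the 4 libraries, with the peaks at the 9 genes as ticks under the curves and 1 kb as a dashed line. The Nrf2 ticks all lie to the right of 10 kb, and 17 of the 21 HIF1α iAs ticks lie within 1 kb.

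The letters searched, on both strands and over the whole peak, gave shares close to those of all peaks for Nrf2. TGACTCAGC was in 2 of 6 control peaks and 3 of 12 iAs peaks, beside 29.0% and 21.7% of all peaks and 0.531% and 0.542% of the same intervals moved by 5 kb. TGACNNNGC, which includes the former, was in 4 of 12 iAs peaks beside 44.2% of all (moved intervals 14.0%), and TGANTCA was in 9 of 12 beside 59.5% (moved intervals 13.4%). Within 100 bp of the centre TGANTCA was in 5 of 12 iAs peaks beside 44.5% of all (moved intervals 6.56%). Over the whole peak it was in 3 of 6 control peaks beside 65.2% of all. In the iAs peaks upstream of EGFR, in TGFA and at chr1:8054204-8054398 near ERRFI1, the only TGANTCA match was TGAATCA, which is not the AP-1 core. In HIF1α iAs peaks ACGTG was in 4 of 21 beside 33.9% of all (moved intervals 18.2%), and GCGTG in 14 of 21 beside 61.1% (moved intervals 29.8%). At the peaks over the start sites of ERBB2 and TGFA and in exon 1 of EGFR, neither of these letters occurred. AAGATGGCG, the core of YY1 elements, was in none of the 21, beside 3.01% of all HIF1α iAs peaks and 0.218% of the moved intervals.

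Around the 9 genes, 94 further genes of the same pathway were examined in 6 groups. Of the whole list, 33 had an Nrf2 peak within 50 kb in control cells and 51 with iAs, 65 had a HIF1α peak in control cells and 85 with iAs, and 72 had a HIF1α iAs peak within 1 kb of the start site, which is 76.6% beside 42.6% of all genes. As shares the counts within 50 kb were 35.1%, 54.3%, 69.1% and 90.4% of the list, above the 20.0%, 35.0%, 45.5% and 68.6% of all genes. The shares were not compared with genes of like length or activity.

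Of the other 7 receptors and ligands, 4 had a HIF1α iAs peak within 50 kb (57.1%, the lowest share of the 6 groups), beside 68.6% of all genes. An Nrf2 iAs peak lay within 50 kb of 3 (42.9%, above the adaptors at 28.6% and the relay genes at 38.1%), beside 35.0%. EGF and NRG3, both ligand genes, had no peak of any library, as AREG and BTC had none. ERBB4, the fourth receptor, had, after iAs, an Nrf2 peak of 741 bp 517 kb inside its long body. It also had a HIF1α iAs peak of 260 bp, 1.20 kb from the start site, and no control peak of either factor. EPGN, the epigen gene next to EREG, had 1 Nrf2 peak in each condition and no HIF1α peak.

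The genes that free the ligands, the sheddases and their cofactors, had Nrf2 peaks within 50 kb at 8 of 9 in control cells, beside 20.0% of all genes. With iAs, Nrf2 and HIF1α peaks each lay within 50 kb of 9 of 9, beside 35.0% and 68.6%. In the gene body or within 10 kb, Nrf2 iAs peaks were left only at ADAM9, ADAM12, ADAM17 and FRMD8. At ADAM10, ADAM15, RHBDF1, RHBDF2 and RHBDL2 they lay further away. Within 1 kb of the start site, 1 of 9 had an Nrf2 iAs peak, beside 5.17%, and 8 of 9 a HIF1α iAs peak, beside 42.6%. ADAM17, the main sheddase of TGFA, AREG, EREG and HBEGF, had, after iAs, an Nrf2 peak of 582 bp at 3.07 kb from its start site and a HIF1α peak of 330 bp over the start, and each overlapped a control peak of its factor. ADAM12 had 6 Nrf2 peaks in control cells and 15 with iAs, beside 3204 and 7743 in the whole Nrf2 lists. It has a long body, and its widest Nrf2 iAs peak lay 184 kb from the start site. FRMD8, which stabilizes the iRhom cofactors of ADAM17, showed with iAs an Nrf2 peak of 1796 bp, 32.8 kb from its start site. A HIF1α iAs peak overlapped this Nrf2 peak, and whether another gene lay nearer to the pair was not examined. ADAM9 had such a pair with an Nrf2 peak of 992 bp, 2.85 kb from its start site. Both Nrf2 peaks overlapped a control peak. RHBDF2, an iRhom gene, had a HIF1α iAs peak of 639 bp near its start and no control peak there.

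Downstream of the receptor, all 21 relay genes had a HIF1α iAs peak within 50 kb, beside 68.6% of all genes. An Nrf2 iAs peak lay within 50 kb of 8 of the 21, beside 35.0%. Within 1 kb of the start site, 15 of 21 had a HIF1α iAs peak, beside 42.6%. The widest peak at the relay genes was a HIF1α peak of 1383 bp over the start site of PIK3R1, a regulatory subunit of PI3K. Among 14 adaptors, 12 had a HIF1α iAs peak within 50 kb, beside 68.6% of all genes, and 4 an Nrf2 iAs peak, beside 35.0%. The widest, a HIF1α peak of 1416 bp, lay at CRKL. The PIK3R1 and CRKL peaks overlapped HIF1α control peaks.

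Negative regulators, the group of ERRFI1, had Nrf2 peaks within 50 kb at 7 of 29 in control cells, beside 20.0% of all genes. With iAs the count was 17 of 29, beside 35.0%. In DUSP4, a phosphatase of ERK, the Nrf2 iAs peak was 1818 bp wide and overlapped a control peak. Nrf2 and HIF1α iAs peaks overlapped at STAM and HGS, which sort internalized receptors, and at PTPN1, a tyrosine phosphatase, with Nrf2 peaks of 689, 502 and 329 bp.

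The immediate early genes, which the pathway switches on first, all had a HIF1α peak within 1 kb of the start with iAs (14 of 14, beside 42.6% of all genes). Within 50 kb, 10 had an Nrf2 iAs peak, beside 35.0% of all genes, and 8 an Nrf2 control peak, beside 20.0%. The widest was FOSL1, with an Nrf2 peak of 1381 bp overlapping a HIF1α peak of 1516 bp near its start in iAs-treated cells. Both overlapped control peaks of their factor, and FOSL1 had 9 HIF1α peaks in the control and 8 with iAs. JUN had a HIF1α iAs peak of 1241 bp, which also overlapped a control peak. MYC, ATF3 and EGR3 also had overlapping peaks of both factors, with Nrf2 peaks of 1093, 591 and 366 bp. Those at MYC and EGR3 overlapped no Nrf2 control peak, and for the ATF3 peak of 591 bp this was not examined. In all, 14 of the 94 pathway genes had such an overlapping pair within 10 kb, beside 6.75% of all protein-coding genes. None of the 9 genes did, a number too small to set against that share.

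**Figure D5:**
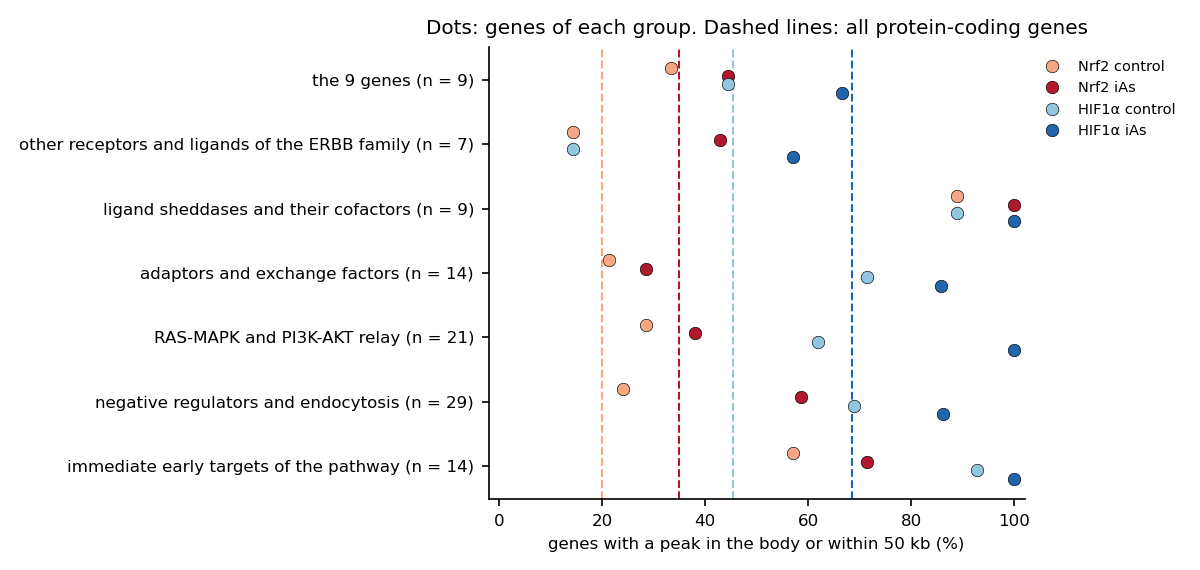
Percent of genes with a peak in the body or within 50 kb (horizontal axis) for the 9 genes and 6 further groups of the pathway (rows, with the number of genes), 1 dot per library, with the percent of all protein-coding genes as dashed lines. The 9 genes lie at 33.3% and 44.4% for Nrf2, to the right of the lines at 20.0% and 35.0%, and at 44.4% and 66.7% for HIF1α, just to the left of those at 45.5% and 68.6%, and the sheddases lie at 88.9% to 100%.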

How the data were processed

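The deposited intervals are, in base positions on hg19, the starts and ends of peaks of 4 ChIP-seq libraries, with no height, score or depth. Per the study's methods, the authors down-sampled usable tags to the sample with the fewest and called peaks with MACS or SICER; the submitters' processing notes name BWA and MACS2 2.1.0. The input library was not used here. The methods name Active Motif antibodies, the labels Santa Cruz (Nrf2) and Abcam (HIF1α).

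Starts were made 1-based. Peaks were assigned to gene bodies and 50 kb around them with GENCODE release 44 lifted to GRCh37, in Python 3.11.15 with NumPy 2.4.6, and recounted with bedtools 2.31.1 (0 counts differed). Positions run from peak centre to the canonical start site. Peaks were shared at an overlap of at least 1 bp. The steps were tested on simulated data. Letters were read from hg19. All 9 genes are named. Of the pathway list, genes with overlapping iAs peaks of both factors within 10 kb are named (at most 10, by the widest Nrf2 peak). Of each group 1 further gene is named, that with the widest iAs peak among the rest of its group. ADAM17, EGF, NRG3 and EPGN were named after their values were seen. The members and lists were chosen with earlier results of these data known.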

Additional observations from a re-analysis of the deposited data

Results flagged for a closer look

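EGFR was the 1 gene of the 9 at which the numbers of peaks of the factors moved in opposite directions with iAs. The change in the number of Nrf2 peaks within 50 kb (iAs minus control) was 3, and that of HIF1α peaks was -1. Each value compares 1 library with 1 library, and the difference was not tested. Among the wider 50% of peaks EGFR had 3 Nrf2 control peaks and 2 Nrf2 iAs peaks, and 3 and 2 HIF1α peaks, so the opposite directions were not seen there. Within 10 kb EGFR had 3 and 5 Nrf2 peaks in control and iAs-treated cells, and 2 and 2 HIF1α peaks. By nearest start site the counts were 3 and 6 for Nrf2, and 2 and 2 for HIF1α. The opposite directions were thus not seen under these choices either. The downstream HIF1α peaks at EGFR were nearest to the start site of LANCL2.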

How the results depend on the processing

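Of 75 values recomputed under alternative choices, 50 stayed within 1.5 times of the value reported and 25 did not, and the cause was not tested. Peak counts at the 9 genes (Nrf2 control, Nrf2 iAs, HIF1α control, HIF1α iAs: 6, 12, 13 and 21) became 3, 4, 7 and 8 among the wider 50% of peaks. With equal numbers of the widest peaks the iAs counts became 4 (Nrf2) and 8 (HIF1α), below the control counts of 6 and 13. HIF1α counts became 4 and 11 within 10 kb, 3 and 10 in the gene body, and 3 and 9 where the member had the nearest start site. Of the 9 genes, 1 had an Nrf2 control peak among the wider 50%, and 2 had a HIF1α control peak within 10 kb, in the body, or by nearest start site. At 100 kb, chosen after seeing the data, 5 and 7 genes had an Nrf2 control and iAs peak. Pathway genes with an Nrf2 peak fell to 16 (control) and 33 (iAs) within 10 kb. Nrf2 iAs peaks without a control peak, 7 in the report, numbered 4 within 10 kb, 0 with equal numbers of the widest peaks and 11 with a reciprocal overlap of 50%, and those of HIF1α, 12 in the report, numbered 4 with equal numbers. TGACTCAGC was in 1 Nrf2 control peak within 100 bp of the centre. No Nrf2 iAs peak overlapped a HIF1α iAs peak within 10 kb, with a reciprocal overlap of 50% or with a gap of 1 kb allowed. No paired analysis was possible because each condition had 1 library and no result comes from a test. Read depth is unknown, so a missing peak cannot be told apart from too few reads, and no library could be left out.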
